A study of Rattus norvegicus with 16 samples.

Results

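Alcohol, aldehyde, retinol and steroid dehydrogenases and the aldo-keto reductases were followed in the livers of 16 male Sprague Dawley rats, measured on Affymetrix Rat Exon 1.0 ST arrays with 1 array per animal. The 4 groups of 4 animals were fed rats, rats fasted to phase 2 of fasting (P2), rats fasted to phase 3 (P3), and rats that had food back for 2 days after phase 3 (P3r2). The sources used here state neither the animals' ages nor how long the fasts lasted, and no genetic modification or drug is named for any group. The genes were chosen by symbol alone: a row of the deposited table had to carry exactly 1 gene symbol, and the symbol had to begin with Adh, Aldh, Akr, Dhrs, Hsd17b or Rdh followed by a digit. This gave 56 of 13215 genes that have their own row, and each of the 56 had a single row. They were 5 Adh, 12 Aldh, 14 Akr, 8 Dhrs, 12 Hsd17b and 5 Rdh genes. In addition 2 rows named a family gene together with another gene and were kept apart.

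These enzymes move electrons between alcohols or carbonyls and the cofactors NAD(H) and NADP(H). The alcohol dehydrogenases oxidize ethanol, retinol and other alcohols to aldehydes, which the aldehyde dehydrogenases oxidize on to acids. Among the retinoids, retinol dehydrogenases interconvert retinol and retinal, and the Aldh1a enzymes turn retinal into retinoic acid. The aldo-keto reductases mostly run the other way and reduce aldehydes and ketones, steroids included. The 17-beta-hydroxysteroid dehydrogenases (Hsd17b) set the activity of sex steroids, but several of them work on fatty acyl chains, sterol precursors or lipid droplets. The name of the group covers the chemistry loosely, since many members of Akr, Dhrs and Rdh act as reductases in cells.

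All values are log2 signals, 1 unit being a doubling, and changes are differences of group means on this scale ± the fit's standard error (n = 4 per group). "Called" means an adjusted p below 0.05 in limma, adjusted over all 18885 rows tested. Median signals of the arrays lay between 4.34 and 4.46, and arrays of a group correlated at 0.966 to 0.992. Of the 4 fed animals, fed 2 had the lowest value in 41 of the 56 genes, and of the P3 animals, P3 3 was lowest in 34. These 2 arrays, with P2 4, were also the 3 with the narrowest spread of all signals. All 10 measured hepatocyte markers lay above the median row in each group, and their summed level was 15.77 to 16.03 in fed, 15.96 to 16.04 in P2, 15.82 to 15.91 in P3 and 15.92 to 15.95 in P3r2 livers. At P3 against fed, 3 of the 10 were lower (Asgr1 by 1.09, Ttr by 0.80 and Ahsg by 0.45) and 1 was higher (Tat, 1.28). At P3 against P2, 4 were lower and 1 higher, and at P3r2 against P3, 3 were higher and 1 lower. Of all rows, 8.06% were lower and 11.3% higher at P3 against fed, and 8.53% and 13.5% at P3 against P2. At P3r2 against P3, 10.5% were higher and 7.93% lower. Of rows at least as bright as the median row, 14.5% were lower and 20.8% higher at P3 against fed. In the other 2 comparisons these shares were 13.7% lower and 25.1% higher, and 19.1% higher and 14% lower. The part of the hepatocyte markers in the results below was not tested. In whole liver, fewer cells of a type and less RNA per cell cannot be told apart.

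Phase 3 was the group in which these genes were most often lowest. Of the 56 genes, 29 (51.8%) had their lowest group mean at P3, against 25.3% of all rows. Against fed livers 20 genes were lower at P3, where 8.06% of all rows were called lower, and 6 were higher, where 11.3% of all rows were called higher. Against P2, 26 genes were lower at P3 (8.53% of all rows) and 3 were higher (13.5% of all rows). Re-feeding for 2 days gave the opposite balance. At P3r2, 26 genes were higher than at P3 (10.5% of all rows) and 3 were lower (7.93% of all rows). These 3 comparisons share the P3 arrays, so they are not independent of each other. The 4 P3 values did not overlap the 4 fed values in 22 genes (19.6% of all rows) nor the 4 P2 values in 30 genes (21.9% of all rows), and the P3r2 values did not overlap the P3 values in 28 genes (22.8% of all rows).

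Fewer genes were called at P2 and after re-feeding when each was set against fed livers. At P2, 9 genes were higher than in fed livers (6.13% of all rows) and 2 were lower (6.58% of all rows). At P3r2, 6 genes were higher than in fed livers (2.21% of all rows) and 2 were lower (0.514% of all rows). The values did not overlap fed values in 15 genes at P2 (19.2% of all rows) and in 18 at P3r2 (12.5% of all rows). The median change of the 56 genes was 0.14 at P2 against fed, -0.01 at P3 against fed, -0.49 at P3 against P2, 0.48 at P3r2 against P3 and 0.19 at P3r2 against fed. Over all rows these medians were 0.05, 0.03, -0.03, -0.03 and 0.02. At P3 against fed the median was -0.58 in the 42 genes with a mean signal at or above that of the median row and 0.12 in the 14 dimmer genes. Of the 42 brighter genes 20 were called lower and 5 higher, where 14.5% and 20.8% of all rows as bright were called. Of the same 42 genes, 9 were higher and 2 lower at P2 than in fed livers (9.36% and 12.4% of rows as bright), and 3 were higher and 26 lower at P3 than at P2 (25.1% and 13.7%). At P3r2, 25 were higher and 2 lower than at P3 (19.1% and 14%), and 5 were higher and 2 lower than in fed livers (4.16% and 0.9%).

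**Figure D1:**
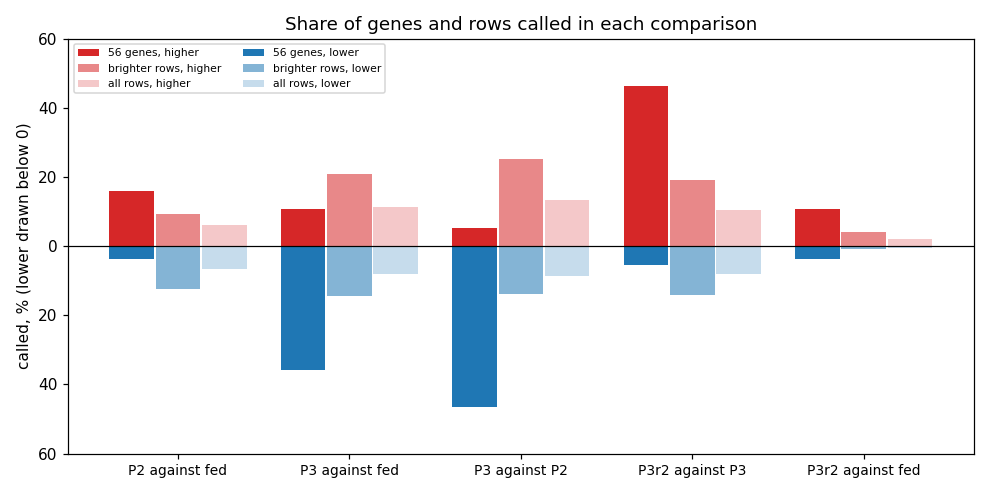
Share of the 56 dehydrogenase and reductase genes (full colour), of the rows at or above the median brightness (medium) and of all 18885 rows (pale) that were called in each comparison, in percent, with calls of higher signal above 0 and calls of lower signal below it. The 56 genes lean to lower calls at P3 (35.7% against fed, 46.4% against P2) and to higher calls on re-feeding (46.4%), while among all rows higher calls outnumber lower ones in both of the P3 comparisons and on re-feeding.

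Without fed 2, P2 4 and P3 3, 22 genes were lower at P3 than in fed livers, 20 of which were also called with all arrays, and 26 were lower at P3 than at P2, all of them called before. The smaller counts moved more when 1 array was left out. The 9 genes higher at P2 became 5 without P2 4, and the 2 lower became 4 without fed 2 and 1 without fed 4, P2 2 or P2 4. The 6 genes higher at P3 than in fed livers became 3 without P3 2 or P3 4. The 3 higher at P3 than at P2 became 5 without P3 1. The 6 higher at P3r2 than in fed livers became 3 without fed 2, P3r2 1, P3r2 3 or P3r2 4, and the 2 lower became 1 without fed 2, fed 4 or any single P3r2 array.

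**Figure D2:**
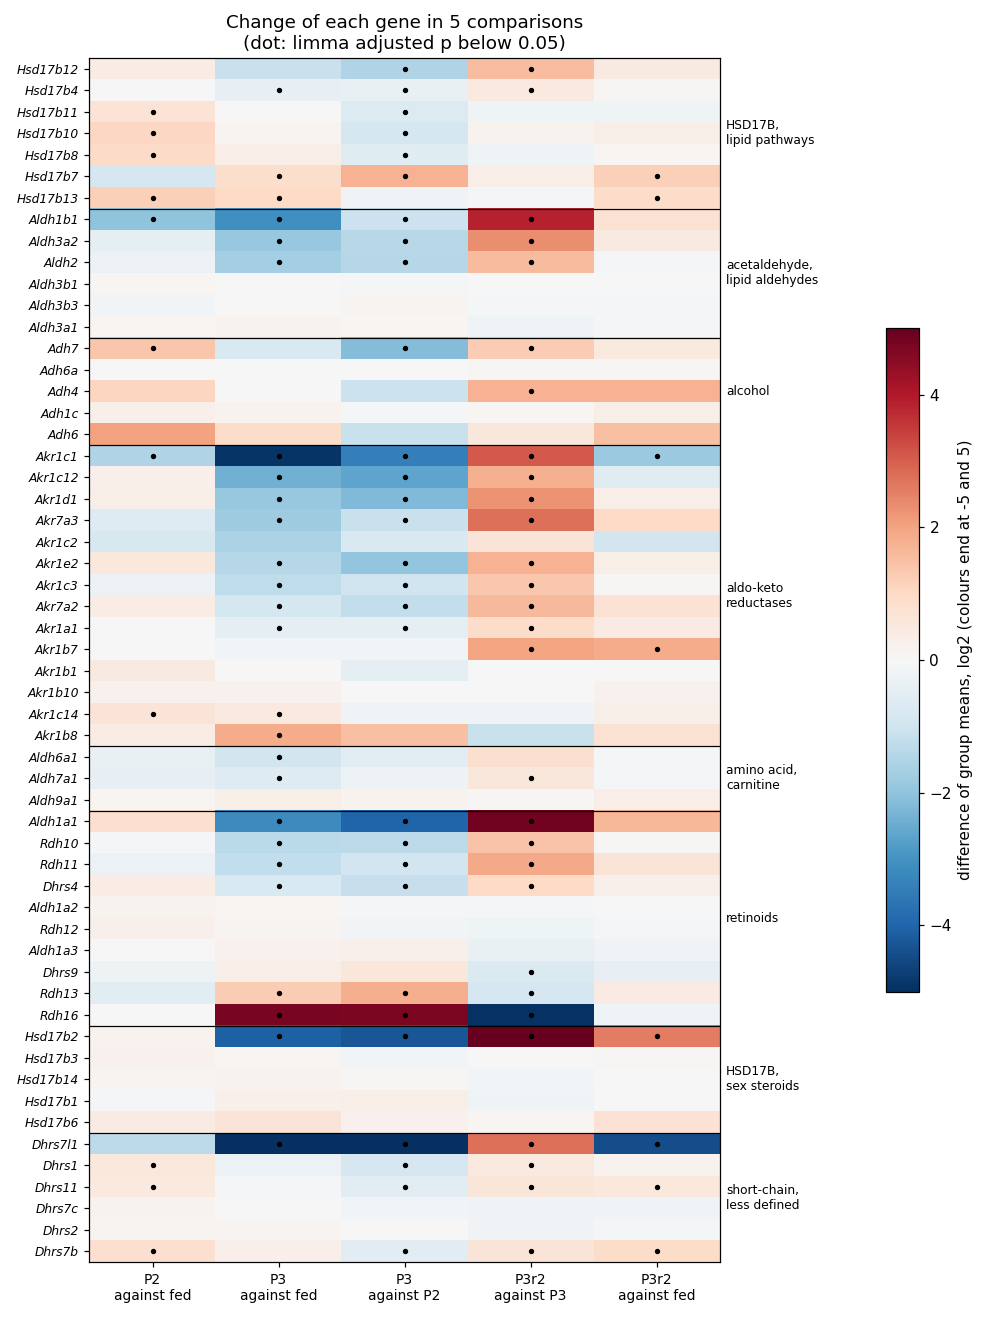
Difference of group means in log2 units (colour, ending at -5 and 5) for each of the 56 genes in 5 comparisons, with the genes ordered by role and, within a role, by their change at P3 against fed. A dot marks an adjusted p below 0.05; at P3 against fed 20 dots stand on falls and 6 on rises, and at P3r2 against P3 26 stand on rises and 3 on falls.

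The sequence just upstream of a gene is where the transcription machinery and many regulators bind. RefSeq promoter entries of the GRCr8 build were found for 43 of the 56 genes. The 250 bases before the annotated start are printed 5′ to 3′ for the 3 called genes with the largest fall and the 2 with the largest rise at P3 against fed among these 43, since these changes are described below. Capitals mark matches to 9 motifs searched on both strands.
Dhrs7l1 (GRCr8 chr6:97047900-97048149, minus strand): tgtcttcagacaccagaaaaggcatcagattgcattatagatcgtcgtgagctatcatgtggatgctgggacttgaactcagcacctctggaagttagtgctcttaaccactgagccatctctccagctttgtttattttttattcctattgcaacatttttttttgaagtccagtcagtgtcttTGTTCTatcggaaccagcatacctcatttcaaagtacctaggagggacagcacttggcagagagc
Aldh1a1 (GRCr8 chr1:227537370-227537619, plus strand): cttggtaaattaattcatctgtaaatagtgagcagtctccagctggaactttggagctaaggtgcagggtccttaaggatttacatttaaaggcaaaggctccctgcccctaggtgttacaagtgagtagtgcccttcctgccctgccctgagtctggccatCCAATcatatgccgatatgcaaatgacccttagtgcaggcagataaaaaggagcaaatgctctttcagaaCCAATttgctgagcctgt
Aldh1b1 (GRCr8 chr5:64858750-64858999, plus strand): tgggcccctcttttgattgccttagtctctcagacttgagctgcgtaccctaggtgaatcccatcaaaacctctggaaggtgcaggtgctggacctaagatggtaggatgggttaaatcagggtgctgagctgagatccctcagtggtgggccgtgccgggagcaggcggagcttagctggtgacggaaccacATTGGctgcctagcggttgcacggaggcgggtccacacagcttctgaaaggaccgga
Akr1b8 (GRCr8 chr4:63964171-63964420, plus strand): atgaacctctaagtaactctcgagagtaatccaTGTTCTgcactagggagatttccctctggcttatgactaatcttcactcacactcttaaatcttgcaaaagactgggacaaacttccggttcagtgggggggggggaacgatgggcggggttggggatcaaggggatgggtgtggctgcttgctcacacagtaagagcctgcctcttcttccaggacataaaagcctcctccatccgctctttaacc
Hsd17b13 (GRCr8 chr14:6056539-6056788, plus strand): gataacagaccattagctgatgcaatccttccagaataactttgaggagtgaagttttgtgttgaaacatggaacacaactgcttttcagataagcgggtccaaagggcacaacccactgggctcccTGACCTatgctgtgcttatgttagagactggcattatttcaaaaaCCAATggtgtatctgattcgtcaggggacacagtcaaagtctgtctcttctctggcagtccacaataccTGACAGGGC
In these windows Aldh1a1 holds 2 CCAAT boxes (CCAAT), Aldh1b1 holds 1 on the reverse strand, and Hsd17b13 holds 1 together with a nuclear receptor half-site (AGGTCA, here reversed) and a match to the antioxidant response element (TGACNNNGC). Dhrs7l1 and Akr1b8 each hold 1 glucocorticoid response half-site (TGTTCT). The CCAAT box occurred in 24 of the 43 promoters (55.8%) and in 34.3% of 27457 promoters of all genes. The half-site TGTTCT occurred in 10 of 43, against 17.1% of all promoters, AGGTCA in 9 of 43 (13.7% of all) and TGACNNNGC in 5 of 43 (10.2% of all). The TATA box (TATAAA) was found in 4 of 43 (13.1% of all). The forkhead core (GTAAACA) was found in Akr1e2 alone (3.25% of all) and the cyclic AMP response element (TGACGTCA) in Dhrs7b alone (1.7% of all). Neither the C/EBP palindrome (TTGCGCAA) nor the HNF1 palindrome was in any of the 43. The motifs do not overlap each other in the 5 windows shown.

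Among the alcohol dehydrogenases, 1 of 5 rose at P2 (6.13% of all rows) and 2 rose on re-feeding (10.5% of all rows). None was called at P3 against fed, where 11.3% of all rows rose and 8.06% fell. Adh7, the class IV enzyme known mainly from stomach, which oxidizes retinol and ethanol, had log2 signals of 5.67, 6.08, 5.72 and 6.63 in fed, 7.57, 7.02, 6.90 and 8.11 in P2, 5.77, 5.77, 4.69 and 4.78 in P3, and 6.98, 5.63, 6.58 and 6.90 in P3r2 livers. All 4 P2 livers were above all fed livers, and the P3 and P3r2 groups overlapped each other. Adh7 rose by 1.37 ± 0.36 (adjusted p = 0.022) at P2, fell by 2.15 ± 0.36 (adjusted p = 4.2e-04) from P2 to P3 and rose by 1.27 ± 0.36 (adjusted p = 0.02) on re-feeding. The P2 call was lost in 4 of 19 alternatives (adjusted p up to 0.08) and the call on re-feeding in 5 of 19 (adjusted p up to 0.069). Adh4, the class II enzyme, had signals of 9.25, 6.99, 8.76 and 7.75 in fed, 9.53, 8.82, 9.26 and 9.42 in P2, 8.46, 8.52, 7.12 and 8.64 in P3, and 9.48, 10.81, 9.70 and 9.69 in P3r2 livers. Every P3r2 liver was above every fed and every P3 liver. Adh4 rose by 1.73 ± 0.45 (adjusted p = 0.012) on re-feeding, and its change of 1.73 ± 0.45 against fed livers missed the threshold (adjusted p = 0.053). Adh1c, the class I enzyme that carries most hepatic ethanol oxidation, ranged only from 11.95 to 12.76 over all 16 livers and was called in no comparison. Adh6 varied widely between animals of a group, with 7.51, 5.82, 7.0 and 3.49 in fed, 8.46, 7.30, 7.29 and 8.89 in P2, 8.61, 8.0, 4.40 and 6.52 in P3, and 7.62, 8.07, 7.29 and 6.79 in P3r2 livers. Its largest difference, 2.03 ± 0.87 at P2 against fed, was not called (adjusted p = 0.13). Adh6a was dim throughout, with 2.43 to 2.85.

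The 5 Adh genes lie side by side on chromosome 2 in GRCr8, in the order Adh7, Adh1c, Adh6a, Adh6, Adh4. At P3 against P2 the changes in this order were -2.15, -0.09, -0.00, -1.10 and -1.07, and among these 5 genes the call was that of Adh7. Probes of close relatives, in the Adh, Akr1b, Akr1c and Rdh groups above all, can take up each other's transcripts, which the deposited table does not resolve.

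Of the 6 genes that oxidize acetaldehyde or lipid aldehydes, 3 were lower and none higher at P3 than in fed livers. At P3r2, 3 were higher than at P3 (10.5% of all rows). At P3 against fed 8.06% of all rows were lower and 11.3% higher. Aldh1b1, a mitochondrial acetaldehyde dehydrogenase, had 7.84, 6.89, 7.36 and 7.95 in fed, 5.33, 5.27, 6.02 and 5.37 in P2, 4.70, 4.16, 4.19 and 4.70 in P3, and 8.47, 7.93, 8.89 and 7.82 in P3r2 livers. All 4 groups were separate from each other except fed and P3r2, which overlapped. Aldh1b1 fell by 2.01 ± 0.27 (adjusted p = 5.0e-04) at P2 and by 1.06 ± 0.27 (adjusted p = 0.0097) more from P2 to P3, and rose by 3.84 ± 0.27 (adjusted p = 9.0e-08) on re-feeding. Aldh2, the main mitochondrial acetaldehyde dehydrogenase, had signals of 10.60 to 10.95 in fed, 10.16 to 10.87 in P2, 8.10 to 9.86 in P3 and 10.51 to 10.81 in P3r2 livers, so every P3 liver was below all others. It fell by 1.70 ± 0.30 (adjusted p = 6.1e-04) at P3 against fed and rose by 1.59 ± 0.30 (adjusted p = 0.0012) on re-feeding. Aldh3a2, the microsomal fatty aldehyde dehydrogenase, fell by 1.88 ± 0.23 (adjusted p = 1.9e-05) at P3 and rose by 2.34 ± 0.23 (adjusted p = 2.3e-06) on re-feeding. Neither Aldh2 nor Aldh3a2 was called at P2 (-0.29 ± 0.30 and -0.49 ± 0.23). Aldh3a1, Aldh3b1 and Aldh3b3 were dim in all livers (3.33 to 4.44) and were never called. Aldh3a1 and Aldh3a2 are neighbours on chromosome 10.

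Of 3 dehydrogenases of amino acid and carnitine pathways, 2 were lower at P3 than in fed livers (8.06% of all rows). Aldh6a1, which acts in valine breakdown, was lower at P3 than in fed livers by 0.90 ± 0.30 (adjusted p = 0.045), and Aldh7a1, which acts in lysine breakdown, by 0.66 ± 0.19 (adjusted p = 0.02). Without P3 3 these changes were -0.56 and -0.49, and the calls were lost in 9 and 6 of 19 alternatives. Aldh9a1, which makes a precursor of carnitine, lay between 10.57 and 11.35 in all livers and was not called.

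Genes that act on retinoids moved in both directions. Of 10, none was called at P2, where 6.13% of all rows rose and 6.58% fell. At P3 against fed 4 fell (8.06% of all rows) and 2 rose (11.3% of all rows). On re-feeding 4 rose (10.5% of all rows) and 3 fell (7.93% of all rows). Aldh1a1, the cytosolic enzyme that oxidizes retinal to retinoic acid, had 9.37, 8.72, 7.59 and 8.92 in fed, 9.39, 8.86, 10.06 and 9.62 in P2, 5.61, 6.54, 4.08 and 5.67 in P3, and 10.44, 10.45, 9.92 and 10.44 in P3r2 livers. Each P3 liver was lower than every other liver, and each P3r2 liver was higher than every fed liver. Aldh1a1 fell by 3.17 ± 0.44 (adjusted p = 7.6e-05) at P3 against fed and rose by 4.84 ± 0.44 (adjusted p = 1.3e-06) on re-feeding. Its excess over fed livers after re-feeding, 1.66 ± 0.44, was not called (adjusted p = 0.059). Aldh1a2 (3.39 to 3.88) and Aldh1a3 (5.88 to 6.73), the other retinal oxidizing enzymes of the subfamily, were never called.

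Rdh10, the enzyme that oxidizes retinol to retinal on the way to retinoic acid, had 9.0 to 9.67 in fed, 9.06 to 9.66 in P2, 7.49 to 8.39 in P3 and 9.37 to 9.61 in P3r2 livers, and fell by 1.36 ± 0.20 (adjusted p = 1.1e-04) at P3. Rdh11, a retinal reductase, fell by 1.23 ± 0.17 (adjusted p = 7.3e-05) and rose by 1.89 ± 0.17 (adjusted p = 1.2e-06) on re-feeding, and Dhrs4, a peroxisomal carbonyl and retinal reductase, fell by 0.77 ± 0.15 (adjusted p = 0.0014) and rose by 1.01 ± 0.15 (adjusted p = 1.4e-04). Both the oxidizing and the reducing enzymes were thus among the genes that fell. Rdh13, a mitochondrial enzyme of the retinal reductase branch, went the other way with 5.59, 5.21, 5.74 and 5.88 in fed, 5.08, 5.08, 5.17 and 4.87 in P2, 7.08, 6.49, 6.46 and 7.42 in P3, and 5.98, 6.31, 5.90 and 5.87 in P3r2 livers. All P3 values were above those of the 3 other groups. It rose by 1.25 ± 0.20 (adjusted p = 2.7e-04) at P3 against fed and fell by 0.85 ± 0.20 (adjusted p = 0.0066) on re-feeding. Dhrs9, a retinol and 3-alpha-hydroxysteroid dehydrogenase, was dim, with 3.38, 3.34, 3.18 and 3.82 in fed, 3.47, 3.27, 2.76 and 3.27 in P2, 3.72, 4.26, 3.52 and 3.56 in P3, and 3.41, 2.92, 2.96 and 2.80 in P3r2 livers. Its P3 values were all above the P3r2 values, and it fell by 0.74 ± 0.20 (adjusted p = 0.014) on re-feeding. Rdh12, next to Rdh11 on chromosome 6, stayed between 3.84 and 4.44 and was not called.

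The row annotated to Rdh16 alone (transcript cluster 7315935), a dehydrogenase of retinol and 3-alpha-hydroxysteroids, showed the largest rise of the 56 genes at P3. Its signals were 5.16, 4.69, 4.83 and 4.57 in fed, 5.15, 4.40, 4.92 and 4.84 in P2, 9.22, 9.41, 9.94 and 9.64 in P3, and 4.54, 4.35, 4.78 and 4.73 in P3r2 livers. The P3 livers formed a group of their own and the other 3 groups overlapped. The rise was 4.74 ± 0.19 (adjusted p = 1.5e-10) at P3 against fed, and on re-feeding the signal fell by 4.95 ± 0.19 (adjusted p = 8.1e-11), to a level that was not called different from fed (-0.21 ± 0.19). A second row (transcript cluster 7326322) is annotated to both Rdh7 and Rdh16, and it moved in the opposite direction. That row had 8.38, 7.77, 8.52 and 8.42 in fed, 8.29, 8.02, 8.50 and 8.04 in P2, 5.98, 6.20, 3.93 and 4.60 in P3, and 8.25, 8.40, 8.39 and 8.16 in P3r2 livers. Every P3 value was below every value of the other groups, and the row fell by 3.10 ± 0.37 at P3 against fed (adjusted p = 2.0e-05). The table does not show which of the 2 rows follows the Rdh16 transcript, so the direction of Rdh16 itself is uncertain.

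**Figure D3:**
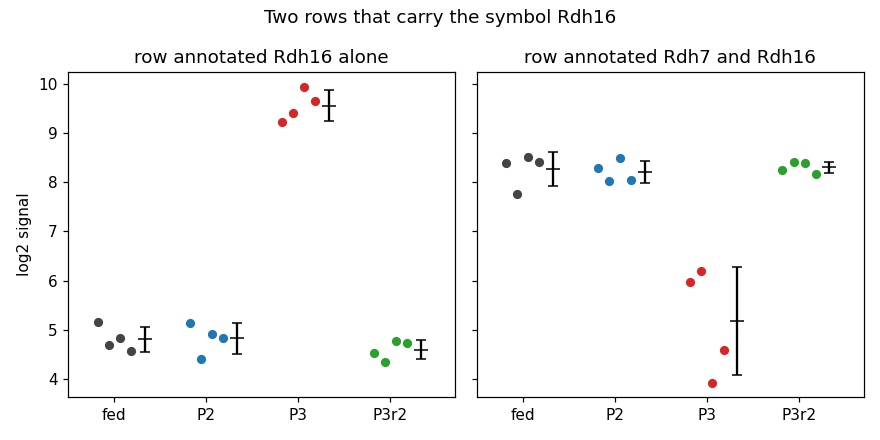
Log2 signal by animal (points) with the mean ± SD of each group of 4 (bars) for the row annotated to Rdh16 alone, left, and the row annotated to Rdh7 and Rdh16, right. At P3 the first row lies at 9.22 to 9.94 and the second at 3.93 to 6.20, while in the other 3 groups the first stays at or below 5.16 and the second at or above 7.77.

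Other genes of retinoid handling were mixed. Of 20 measured genes for the binding, storage, cleavage, breakdown and receptors of retinoids, 4 rose and 6 fell at P3 against fed, with a median of -0.14. In this comparison 11.3% of all rows rose and 8.06% fell, and 20.8% and 14.5% of rows at or above the median brightness. Cyp26a1, which breaks down retinoic acid and is itself induced by it, rose by 2.88 ± 0.43, and Bco1, which cleaves beta-carotene, fell by 2.87 ± 0.27, as did Retsat, retinol saturase, by 2.07 ± 0.35. At P2, 1 rose (6.13% of all rows) and 4 fell (6.58% of all rows). Among those that fell were Bco1 (-1.55 ± 0.27), Rarb, a retinoic acid receptor (-1.35 ± 0.23), and Lrat, which esterifies retinol for storage (-1.06 ± 0.22). On re-feeding Bco1 rose by 2.79 ± 0.27 and Rxrg, a retinoid receptor, by 2.60 ± 0.23, while Cyp26a1 fell by 2.26 ± 0.43. In all, 6 genes were higher (10.5% of all rows) and 4 lower (7.93% of all rows). Lrat is also a marker of stellate cells, of whose 9 measured markers 1 was higher and 3 lower at P3 than in fed livers. The summed level of these markers was 11.10 to 11.65 in fed, 10.42 to 11.13 in P2, 11.33 to 12.32 in P3 and 10.52 to 11.18 in P3r2 livers. At P3 against fed the median change of the 9 was -0.29, and the marker called higher was Dcn, by 3.80 ± 0.39. The part of the stellate cell markers in the retinoid results was not tested.

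**Figure D4:**
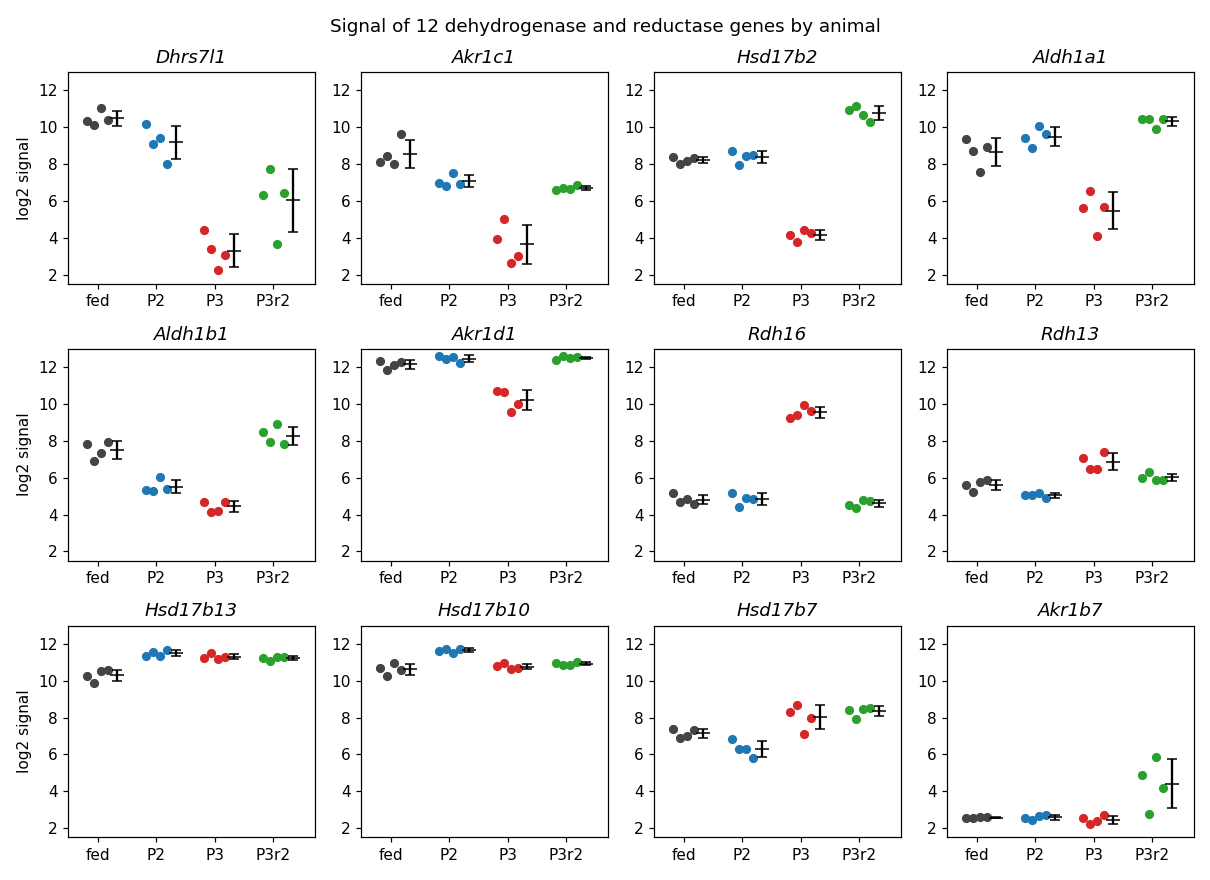
Log2 signal of 12 genes by animal (points) with the mean ± SD of each group of 4 (bars). Dhrs7l1, Akr1c1, Hsd17b2, Aldh1a1, Aldh1b1 and Akr1d1 are lowest at P3, Rdh16 and Rdh13 are highest there, Hsd17b13 and Hsd17b10 are highest at P2, and Akr1b7 is above 4 in 3 of the 4 re-fed livers.

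Of the 14 aldo-keto reductases, 8 fell (8.06% of all rows) and 2 rose (11.3% of all rows) at P3 against fed. On re-feeding 9 rose (10.5% of all rows). Of rows at or above the median brightness 14.5% fell and 20.8% rose at P3 against fed, and 19.1% rose on re-feeding. Akr1d1, the steroid 5-beta-reductase of bile acid synthesis, had 12.34, 11.84, 12.12 and 12.28 in fed, 12.62, 12.44, 12.57 and 12.20 in P2, 10.72, 10.64, 9.57 and 10.02 in P3, and 12.41, 12.58, 12.47 and 12.54 in P3r2 livers. Every P3 value was below all others, and every P3r2 value was above every fed value. It fell by 1.91 ± 0.21 (adjusted p = 6.7e-06) at P3 against fed and rose by 2.26 ± 0.21 (adjusted p = 1.3e-06) on re-feeding. Akr7a3, a reductase of aflatoxin aldehydes in the rat, had 9.29, 8.93, 9.49 and 8.87 in fed, 8.87, 8.55, 8.91 and 7.65 in P2, 7.35, 8.64, 6.50 and 7.04 in P3, and 10.21, 10.49, 9.53 and 10.35 in P3r2 livers. Its P3r2 values were all above its fed values, but that difference (1.00 ± 0.38) was not called. Akr7a3 fell by 1.76 ± 0.38 (adjusted p = 0.0033) at P3 against fed and rose by 2.77 ± 0.38 (adjusted p = 7.9e-05) on re-feeding. Its neighbour Akr7a2, a reductase of succinic semialdehyde and other aldehydes, fell by 0.89 ± 0.20 (adjusted p = 0.0044) and rose by 1.62 ± 0.20 (adjusted p = 2.7e-05). Akr1a1, the aldehyde reductase that also serves ascorbate synthesis in rodents, varied little within groups (SD 0.03 to 0.22) and fell by 0.50 ± 0.11 (adjusted p = 0.0025) at P3 against fed. After quantile normalization its call at P3 against P2 was lost (adjusted p = 0.13).

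The genes of the Akr1c cluster on chromosome 17 lay in the order Akr1e2, Akr1c2, Akr1c1, Akr1c12, Akr1c3, Akr1c14, and their changes differed widely. Akr1c1 was the only one of the 56 genes called in all 5 comparisons, with 8.10, 8.42, 8.0 and 9.62 in fed, 6.99, 6.78, 7.52 and 6.91 in P2, 3.93, 4.99, 2.65 and 2.99 in P3, and 6.59, 6.70, 6.64 and 6.87 in P3r2 livers. All fed livers were above all P2 and P3r2 livers, and all P3 livers were below the rest. Akr1c1 fell by 1.49 ± 0.42 (adjusted p = 0.033) at P2 and by 3.41 ± 0.42 (adjusted p = 3.5e-05) from P2 to P3, rose by 3.06 ± 0.42 (adjusted p = 7.9e-05) on re-feeding and still lay 1.84 ± 0.42 below fed (adjusted p = 0.031). Its calls at P2 and at P3r2 against fed were each lost in 7 of 19 alternatives, with an adjusted p up to 0.11 without fed 4 and 0.088 without P3r2 3. Akr1c12 had 9.96, 8.83, 9.89 and 9.84 in fed, 9.81, 9.86, 10.34 and 9.44 in P2, 7.87, 8.04, 6.0 and 7.03 in P3, and 8.94, 9.10, 9.12 and 8.85 in P3r2 livers. Its P3 livers were below all others, its P2 livers overlapped the fed ones, and it fell by 2.39 ± 0.37 (adjusted p = 1.8e-04) at P3 against fed. Akr1c3 fell by 1.26 ± 0.26 (adjusted p = 0.0025) and Akr1e2, whose mouse counterpart reduces 1,5-anhydrofructose, by 1.43 ± 0.43 (adjusted p = 0.026). The call of Akr1e2 was lost in 6 of 19 alternatives, with an adjusted p up to 0.13.

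At the end of the cluster Akr1c14, the rat 3-alpha-hydroxysteroid dehydrogenase that inactivates androgens and glucocorticoids, moved the other way. Its signals were 11.46, 10.69, 11.58 and 11.53 in fed, 11.89, 12.10, 11.87 and 12 in P2, 11.69, 11.71, 11.85 and 11.87 in P3, and 11.54, 11.56, 11.66 and 11.72 in P3r2 livers. Each P2 and P3 value was above each fed value, and the lowest fed value was that of fed 2. It rose by 0.65 ± 0.16 (adjusted p = 0.015) at P2 and by 0.47 ± 0.16 (adjusted p = 0.049) at P3, and without the 3 arrays of narrow spread these changes were 0.43 and 0.24. The call at P3 was lost in 11 of 19 alternatives (adjusted p up to 0.17). Akr1c2 varied most between animals, with 8.68, 4.35, 5.94 and 6.38 in fed, 5.03, 5.79, 5.53 and 5.75 in P2, 3.47, 9.32, 3.07 and 3.12 in P3, and 5.08, 5.26, 5.24 and 6.05 in P3r2 livers. Single livers reached 8.68 in the fed and 9.32 in the P3 group while the other 3 P3 livers lay at 3.47 or below, and no comparison was called.

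**Figure D5:**
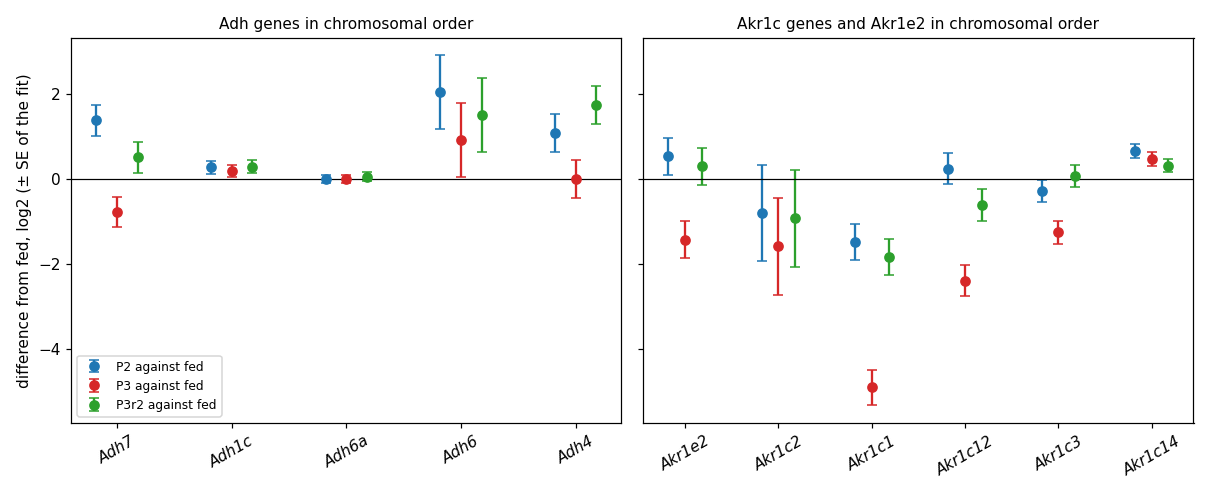
Difference from fed livers in log2 units ± the standard error of the fit at P2, P3 and P3r2 for the 5 Adh genes on chromosome 2 (left) and for Akr1e2 and the Akr1c genes on chromosome 17 (right), each in chromosomal order. In the Akr1c cluster P3 lies between -4.90 for Akr1c1 and 0.47 for Akr1c14, while in the Adh cluster P3 lies between -0.78 and 0.92.

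The Akr1b genes formed another cluster, on chromosome 4. Akr1b7, a reductase of isocaproaldehyde and other aldehydes, was near the dim end in all fed and fasted livers and was raised in re-fed ones, with 2.56, 2.53, 2.60 and 2.61 in fed, 2.55, 2.42, 2.65 and 2.74 in P2, 2.53, 2.22, 2.37 and 2.70 in P3, and 4.88, 2.77, 5.89 and 4.16 in P3r2 livers. Every P3r2 value was above all 12 other values, but P3r2 2 exceeded the nearest of them by little. Akr1b7 rose by 1.97 ± 0.42 (adjusted p = 0.0034) on re-feeding and was 1.85 ± 0.42 above fed (adjusted p = 0.03), a call lost in 10 of 18 alternatives. Akr1b8 had 2.41, 2.86, 4.02 and 2.75 in fed, 3.60, 3.86, 3.26 and 2.81 in P2, 3.07, 5.43, 5.32 and 5.67 in P3, and 4.87, 3.57, 3.81 and 2.85 in P3r2 livers. In 3 of 4 P3 livers it was above all fed livers, while P3 1 lay among them. It rose by 1.86 ± 0.54 (adjusted p = 0.021) at P3, a call lost in 7 of 18 alternatives, and by 2.46 without P3 1. Akr1b1, aldose reductase of the polyol pathway, ranged from 7.40 to 8.53 and Akr1b10 from 2.31 to 2.89, and neither was called.

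Among the 5 Hsd17b genes that act mainly on sex steroids, 1 moved. At P3 against fed it fell (8.06% of all rows) and on re-feeding it rose (10.5% of all rows). Hsd17b2, which oxidizes estradiol and testosterone to their less active keto forms, had 8.37, 7.99, 8.15 and 8.31 in fed, 8.70, 7.94, 8.45 and 8.49 in P2, 4.13, 3.76, 4.40 and 4.24 in P3, and 10.92, 11.17, 10.66 and 10.27 in P3r2 livers. Fed and P2 livers overlapped, P3 livers lay far below and P3r2 livers above all others. It fell by 4.07 ± 0.20 (adjusted p = 2.3e-09) at P3 against fed, rose by 6.63 ± 0.20 (adjusted p = 5.0e-12) on re-feeding and ended 2.55 ± 0.20 above fed livers (adjusted p = 7.2e-06). Each of its 4 calls held in all alternatives run. Hsd17b6, an oxidative 3-alpha-hydroxysteroid dehydrogenase, reached 10.27 in fed and 11.52 in P3 livers, and was not called. Hsd17b1 (3.28 to 3.88), Hsd17b3 (2.22 to 2.79), the testicular enzyme of testosterone synthesis, and Hsd17b14 (2.93 to 3.43) were dim in all groups and not called.

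Steroid metabolism outside these families was called in both directions at P3. Of 16 measured genes 7 fell and 2 rose against fed, with a median of -0.17. In this comparison 8.06% of all rows fell and 11.3% rose, and 14.5% and 20.8% of rows at or above the median brightness. Cyp2c11, the male-specific steroid hydroxylase, fell by 6.30 ± 0.50 and Cyp3a2, another steroid hydroxylase, by 2.38 ± 0.53, while H6pd, which supplies NADPH to 11-beta-hydroxysteroid dehydrogenase in the endoplasmic reticulum, rose by 2.02 ± 0.25. On re-feeding 6 rose (10.5% of all rows) and 2 fell (7.93% of all rows). At P3r2 against fed none of the 16 was called, where 2.21% of all rows were higher and 0.514% lower. In bile acid synthesis, to which Akr1d1 belongs, 5 of 15 other genes fell and 2 rose at P3 against fed. Cyp39a1 fell by 2.25 ± 0.47 and Cyp8b1, the sterol 12-alpha-hydroxylase, by 1.97 ± 0.63, and Baat, which conjugates bile acids, by 1.72 ± 0.35. The 2 that rose were Cyp27a1, by 1.53 ± 0.17, and Cyp7a1, by 1.39 ± 0.40. From P2 to P3, 6 of the 15 fell (8.53% of all rows) and 2 rose (13.5% of all rows). The rises were 2.77 ± 0.40 for Cyp7a1 and 0.75 ± 0.17 for Cyp27a1. At P3r2 none of the 15 was called different from fed.

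The Hsd17b genes of lipid pathways were the role with the most calls at P2, where 4 of 7 rose and none fell. Of the short-chain genes of less defined role 3 of 6 rose. At P2, 6.13% of all rows and 9.36% of rows at or above the median brightness were called higher. Hsd17b13, a protein of lipid droplets, had 10.24, 9.90, 10.51 and 10.56 in fed, 11.34, 11.57, 11.36 and 11.69 in P2, 11.23, 11.50, 11.21 and 11.28 in P3, and 11.26, 11.09, 11.27 and 11.29 in P3r2 livers. All 12 fasted and re-fed livers were above all 4 fed livers. It rose by 1.19 ± 0.14 (adjusted p = 1.6e-04) at P2 and by 1.00 ± 0.14 (adjusted p = 7.2e-05) at P3, and was still 0.93 ± 0.14 above fed after re-feeding (adjusted p = 0.0023). Its neighbour on chromosome 14, Hsd17b11, also a lipid droplet protein, had 11.14, 10.66, 11.20 and 11.10 in fed, 11.73, 11.80, 11.84 and 11.44 in P2, 11.34, 11.60, 10.41 and 10.69 in P3, and 10.97, 10.74, 10.84 and 10.68 in P3r2 livers. P2 was above fed in every animal, while P3 overlapped fed. Hsd17b11 rose by 0.68 ± 0.21 (adjusted p = 0.049) at P2, but this call was lost in 11 of 19 alternatives, with an adjusted p of 0.11 without fed 2.

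Both Hsd17b10, a mitochondrial enzyme of isoleucine breakdown and a part of mitochondrial RNase P, and Hsd17b8, which takes part in mitochondrial fatty acid synthesis, rose at P2 alone among the fasted states. Hsd17b10 had 10.70, 10.26, 10.97 and 10.56 in fed, 11.61, 11.73, 11.53 and 11.75 in P2, 10.80, 10.95, 10.63 and 10.70 in P3, and 10.96, 10.88, 10.86 and 11.02 in P3r2 livers. Hsd17b8 had 6.78, 6.34, 6.88 and 6.54 in fed, 7.45, 7.49, 7.50 and 7.94 in P2, 6.98, 6.86, 7.20 and 6.84 in P3, and 6.77, 6.59, 6.78 and 6.83 in P3r2 livers. In both genes the 4 P2 values were above the 12 values of the other groups. Hsd17b10 rose by 1.03 ± 0.13 (adjusted p = 2.8e-04) at P2 and fell by 0.88 ± 0.13 (adjusted p = 1.5e-04) from P2 to P3, and Hsd17b8 rose by 0.96 ± 0.14 (adjusted p = 8.8e-04) and fell by 0.62 ± 0.14 (adjusted p = 0.0041). Against fed livers their P3 values (0.15 ± 0.13 and 0.33 ± 0.14) were not called.

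Hsd17b7, a keto reductase of cholesterol synthesis, had 7.37, 6.87, 7.02 and 7.33 in fed, 6.82, 6.28, 6.30 and 5.80 in P2, 8.29, 8.68, 7.12 and 8.0 in P3, and 8.39, 7.95, 8.49 and 8.55 in P3r2 livers. All P3 and P3r2 livers were above all P2 livers. The P2 values were below the fed values in every animal, but this difference, -0.85 ± 0.28, was not called (adjusted p = 0.059). Hsd17b7 rose by 1.72 ± 0.28 (adjusted p = 3.4e-04) from P2 to P3 and was 1.19 ± 0.28 (adjusted p = 0.033) above fed livers at P3r2. The second of these calls was lost in 8 of 19 alternatives, with an adjusted p up to 0.11, and the call of 0.88 ± 0.28 at P3 against fed in 7 of 19. Hsd17b12, a reductase of long-chain fatty acid elongation, had 8.88 to 9.97 in fed, 9.82 to 10.20 in P2, 6.99 to 9.53 in P3 livers and about the P2 level in P3r2 livers (highest 10.18), and fell by 1.52 ± 0.41 (adjusted p = 0.014) from P2 to P3. Without P3 3 this change was -1.01, and the call was lost with only both groups in the fit (adjusted p = 0.068). Hsd17b4, the bifunctional enzyme of peroxisomal beta-oxidation, was lower by 0.40 ± 0.12 (adjusted p = 0.026) at P3 than in fed livers, a call lost in 7 of 19 alternatives, with a change of -0.21 after quantile normalization (adjusted p = 0.21).

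Short-chain dehydrogenases of less defined role included the largest fall. Dhrs7l1 (transcript cluster 7307688) had 10.32, 10.10, 11.06 and 10.40 in fed, 10.15, 9.11, 9.43 and 7.99 in P2, 4.43, 3.39, 2.25 and 3.08 in P3, and 6.31, 7.74, 3.67 and 6.44 in P3r2 livers. Fed and P2 overlapped, every P3 value was below every fed and P2 value, and the re-fed animals spread from 3.67 to 7.74 without reaching any P2 value. Dhrs7l1 fell by 7.18 ± 0.68 (adjusted p = 1.9e-06) at P3 against fed, rose by 2.75 ± 0.68 (adjusted p = 0.0091) on re-feeding and remained 4.43 ± 0.68 below fed (adjusted p = 0.0028). Without P3r2 3 the rise was 3.54 and the shortfall -3.64. The gene is the one of the 56 whose re-fed level was furthest below the fed level.

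Dhrs7b, which acts in the synthesis of ether lipids, had 7.16, 6.50, 7.29 and 7.13 in fed, 7.61, 7.97, 7.63 and 8.25 in P2, 7.17, 7.25, 7.39 and 7.31 in P3, and 7.94, 7.76, 7.83 and 8.15 in P3r2 livers. P2 and P3r2 were above fed in every animal. It rose by 0.84 ± 0.17 (adjusted p = 0.0065) at P2 and was 0.90 ± 0.17 above fed at P3r2 (adjusted p = 0.011). That second call was lost after quantile normalization (adjusted p = 0.081). Dhrs11 had 6.67, 6.27, 6.74 and 6.60 in fed, 7.03, 6.98, 7.09 and 7.07 in P2, 6.55, 6.71, 6.11 and 6.61 in P3, and 7.22, 6.95, 7.07 and 7.17 in P3r2 livers. P2 and P3r2 values were again all above the fed values. It rose by 0.47 ± 0.13 (adjusted p = 0.032) at P2 and was 0.53 ± 0.13 above fed at P3r2 (adjusted p = 0.044), calls lost in 9 and 12 of 19 alternatives. Dhrs1 rose by 0.54 ± 0.16 (adjusted p = 0.044) at P2, a call lost in 13 of 19 alternatives, and fell by 0.85 ± 0.16 (adjusted p = 0.0013) from P2 to P3. Dhrs2 (4.65 to 5.25) and Dhrs7c (3.41 to 4.14), known from skeletal muscle, were not called.

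In all, 19 of the 56 genes were called in no comparison and 1, Akr1c1, in all 5. No such counts are given for all rows, so these 2 numbers have no background to be judged against. Of the 103 calls made over the 5 comparisons, 73 held under all alternatives run, and the other 30 lost their call in at least 1. Markers of liver zones were also called at P3, where 11.3% of all rows were higher and 8.06% lower than in fed livers. Of 8 periportal markers 7 were higher at P3 than in fed livers and 1 lower, with a summed level of 15.37 to 15.50 against 14.24 to 14.56. Of 7 pericentral markers 3 were higher and 4 lower, with a summed level of 13.66 to 13.94 against 13.06 to 13.59. The median change of these 7 was -0.70, while the brightest of them, Cyp2e1, rose by 0.63 ± 0.12. The summed levels of periportal and pericentral markers were 14.35 to 14.77 and 13.61 to 13.81 at P2. At P3r2 they were 14.31 to 14.54 and 13.39 to 13.57. Several of these markers are themselves enzymes of nitrogen and glucose metabolism, and their part in the results was not tested.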

How the data were processed

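One Affymetrix Rat Exon 1.0 ST array was hybridised per rat liver, with 4 rats per group. Per the submitters' processing notes, the authors used GCOS 1.4 and Affymetrix Expression Console 1.1, and name no summarisation or background method. The deposited table holds 1 log2 signal per transcript cluster and array; the log2 scale was read from the values, which run from 0.84 to 13.63. Rows were named from GEO's platform annotation. Of 19418 rows, 533 were left out because their identifiers lie below those of all annotated rows, which left 18885 rows, of which 13327 had 1 symbol. A linear model with a mean per group was fitted to all 16 arrays and 18885 rows with limma 3.58.1 in R 4.3.3, followed by empirical Bayes moderation and Benjamini-Hochberg adjustment. The fit was also run on simulated data, but no outcome is given here, so nothing about the real arrays is drawn from that run. No signal threshold was applied, and precision is limited by how many arrays there are. With 1 array per animal, the p-values judge differences of group means against the spread between animals within groups. Members were all genes matching the symbol rule. In each comparison up to 6 called members with the largest rise and up to 6 with the largest fall are named with every value, and of each list of other genes up to 3 called genes with the largest change. In the bile acid and ethanol lists the called genes that rose at P3 are named as well. The members, lists and tests were chosen with earlier results of these data known. Promoters and gene order came from RefSeq, build GRCr8, and matplotlib 3.10.9 and pandas 2.3.3 in Python 3.11.15 drew the figures. Alternatives covered quantile normalization, median centring, brighter rows only, array weights, the spread of the array as a covariate, removal of a trend with gene length, both groups alone, the replicate number as a block, omission of the 3 arrays of narrow spread and omission of each array.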

Additional observations from a re-analysis of the deposited data

Results flagged for a closer look

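In groups of 4 values, 22 of 224 had a highest or lowest animal set apart from the others, where chance gives about 5 in 100. Of the 22, 10 were high and 12 low, and 4 fell on fed 2 and 3 on P3 3. Fed 2 was low for Akr1c12 (8.83, next 9.84), Akr1c14 (10.69, next 11.46), Aldh2 (10.60, next 10.90) and Hsd17b6 (9.53, next 10.25). P3 3 was low for Adh1c (11.95, next 12.45) and Adh4 (7.12, next 8.46) and high for Dhrs7c (4.14, next 3.57). The widest gap was that of Akr1c2, at 9.32 in P3 2 against 3.47 in the next P3 liver. Akr1b8 was low in P3 1 (3.07, next 5.32), and Akr1c3 was high in P3 4 (4.37, next 4.04).

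In the other groups the gaps were mostly below 1 unit. Fed 3 was high for Akr1b1 (8.23) and Hsd17b3 (2.67). P2 1 was low for Adh6a (2.43), P2 3 high for Aldh1b1 (6.02), and P2 4 low for Aldh9a1 (10.57) and high for Hsd17b8 (7.94). Among re-fed livers, P3r2 1 was high for Dhrs2 (4.97) and Rdh11 (9.85). P3r2 2 was low for Adh1c (12.22) and high for Adh4 (10.81, next 9.70). P3r2 3 was low for Aldh1a1 (9.92), and P3r2 4 was low for Aldh2 (10.51).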

How the results depend on the processing

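For the 22 genes chosen by size of change, 2075 values were recomputed: 1924 kept their side of the threshold, 122 lost a call and 29 gained one. The sign differed in 28, none of them called with all arrays or in the alternative and none above 0.24 in size with all arrays. Quantile normalization gave 7 and median centring 5 genes higher at P3 than at P2, against 3, although neither moved the median of all rows by over 0.1. With a trend with gene length removed, 6 were higher at P3 than at P2, and 10 were higher at P3r2 than in fed livers. Brighter rows alone gave 10 and array weights 11 genes higher at P3r2 than in fed livers. Array weights also gave 4 lower at P2 and 5 lower at P3r2 than at P3. With the spread of the array as a covariate, 1 was lower at P2 and 3 were higher at P3r2 than in fed livers. With both groups alone in the fit, 3 were higher at P3 than in fed livers. The cause of these shifts was not tested. Shares of all rows called under the alternatives, omission of arrays included, are not given. The counts of genes under them therefore cannot be set against a background. With the replicate number as a block, 1 gene was lower at P2 and 1 at P3r2 than in fed livers. Deviations of same-numbered arrays of different groups correlated at -0.40 to 0.26, over 0.1 in 6 of 24 pairs. Arrays with different numbers gave -0.31 to 0.31, over 0.1 in 16 of 72 pairs. No sign of a pairing by number was seen in these values, but 4 arrays per group are too few to exclude one.

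Leaving out each array in turn gave 5 to 7 genes higher and 1 to 4 lower at P2 than in fed livers, 3 to 5 higher and 16 to 22 lower at P3 than in fed livers, 3 to 5 higher and 23 to 26 lower at P3 than at P2, 23 to 28 higher and 3 to 4 lower at P3r2 than at P3, and 3 to 6 higher and 1 to 2 lower at P3r2 than in fed livers. Dim rows near the bottom of the scale can hide changes, which limits the 14 dimmer genes.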

Other observations

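Enzymes around ethanol, acetate, fructose and sorbitol outside the families were called in both directions at P3. Of 9 measured genes 3 fell (8.06% of all rows), 1 rose (11.3% of all rows) and 5 were not called at P3 against fed. Of rows at or above the median brightness 14.5% fell and 20.8% rose. Cat, catalase, fell by 3.03 ± 0.46, Khk, which phosphorylates fructose, by 3.01 ± 0.34, and Sord, the sorbitol dehydrogenase of the polyol pathway, by 1.34 ± 0.17. The gene that rose was Cyp2e1, the ethanol-inducible P450, by 0.63 ± 0.12. On re-feeding 4 rose (10.5% of all rows) and none fell (7.93% of all rows), with Khk up by 3.36 ± 0.34 and Cat by 3.09 ± 0.46. No gene of the 9 was called different from fed at P3r2. At P2, Xdh, xanthine dehydrogenase, fell by 1.22 ± 0.19 and Cyp2e1 rose by 0.79 ± 0.12.

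Genes of aldehyde and electrophile defence moved both ways at P3, with 4 of 18 higher and 6 lower than in fed livers. Of all rows 11.3% were higher and 8.06% lower, and of rows at or above the median brightness 20.8% and 14.5%. Hmox1, heme oxygenase, rose by 2.62 ± 0.41, while Ephx1, microsomal epoxide hydrolase, fell by 2.13 ± 0.16 and Ugdh, which makes UDP-glucuronate, by 1.71 ± 0.16. On re-feeding 9 rose (10.5% of all rows) and 2 fell (7.93% of all rows). Me1, malic enzyme, rose by 3.44 ± 0.38 and was still 2.01 ± 0.38 above fed livers (adjusted p in limma = 0.01). The row shared by Rcn3 and Aldh16a1 was called in no comparison, with its largest change 0.57 ± 0.23 on re-feeding (adjusted p in limma = 0.1).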
